A study of Mus musculus with 7 samples.

Results

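The Hox cluster genes are the 39 protein-coding mouse genes named Hoxa, Hoxb, Hoxc or Hoxd with a number, and they were taken by symbol from the 55335 genes of the count tables, of which 21899 are protein coding. The Hoxa cluster (11 genes) lies at chr6:52155590-52260880 on the minus strand of the GRCm38 genome, Hoxb (10 genes) at chr11:96194316-96368256, Hoxc (9 genes) at chr15:102921103-103036852 and Hoxd (9 genes) at chr2:74668310-74765142, all of the last 3 on the plus strand. Counts came from cultured neural stem cells (NSCs) of FVB/N mice, 4 samples wild type for Smchd1 (WT) and 3 carrying the MommeD1 null mutation of Smchd1 (Smchd1-null), all grown with EGF and bFGF. Polyadenylated RNA was sequenced as unamplified cDNA on nanopore flow cells in 2 batches that differed in the version of the library kit. Batch 1 held Smchd1-null replicates 1 and 2 with WT replicate 2, batch 2 held Smchd1-null replicate 3 with WT replicates 3 and 4, and WT replicate 1 was run in each of them. The sources used here gave neither the brain region nor the age the cells came from, and they did not say whether the cell lines of a genotype came from separate animals, so any p-value measures the spread between these samples.

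Hox genes encode homeodomain transcription factors that give cells along the body axis their position. Within a cluster, genes at the 3′ end (low paralog numbers) are used in the hindbrain and genes at the 5′ end in the trunk, limbs and tail, while forebrain and midbrain cells keep the clusters silent under Polycomb complexes. Retinoic acid and Cdx factors open the clusters in the embryo, Trithorax complexes hold them open, and TALE homeodomain proteins such as Pbx and Meis bind DNA together with Hox proteins. Smchd1 encodes a chromatin repressor of the SMC family, known for its part in silencing the inactive X chromosome and clustered genes, the Hox genes among them.

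The 7 samples held 2741820 to 7736498 counts each. Smchd1, the mutated gene, was at 55.7 to 74.7 CPM (counts scaled to a library of 1 M counts) in WT and 12.8 to 18.4 CPM in Smchd1-null samples, a log2 fold change of -2.15 ± 0.18 (SE, limma adjusted p = 1.10e-04). NSC markers were high in every sample, with Vim between 2186 and 2554 CPM, and the summed markers of fibroblasts (6 genes), endothelium (4 genes) and microglia (5 genes) each stayed at or under 4.46 CPM. The summed neuron markers (7 genes) ran from 31.8 to 80.1 CPM in WT and from 29.4 to 34.7 CPM in Smchd1-null samples. The summed oligodendrocyte markers (5 genes) ran from 108 to 589 CPM in WT and from 129 to 148 CPM in Smchd1-null samples. The highest sum was that of WT replicate 4, and the part of that sample's cell makeup in the results was not tested.

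Hox transcripts were close to absent in these cells. The 39 genes took 64 of 33.3 M counts, which is 1.92 per M. Of the 273 combinations of a gene and a sample, 231 (84.6%) were at 0, 26 held 1 count, 11 held 2, 4 held 3 and 1 held 4. At least 1 count was found for 25 genes, while 14 genes had none in any sample: Hoxa6, Hoxa11, Hoxb3, Hoxb7, Hoxb8, Hoxb9, Hoxb13, Hoxc4, Hoxc5, Hoxc11, Hoxc12, Hoxd8, Hoxd10 and Hoxd12. A gene with no count in all 7 samples could still have a level of up to 0.0908 CPM, the level of 3 counts over all samples. In a single sample that limit lay between 0.399 CPM (Smchd1-null replicate 2) and 1.13 CPM (Smchd1-null replicate 1), and it covers counting error only.

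**Figure D1:**
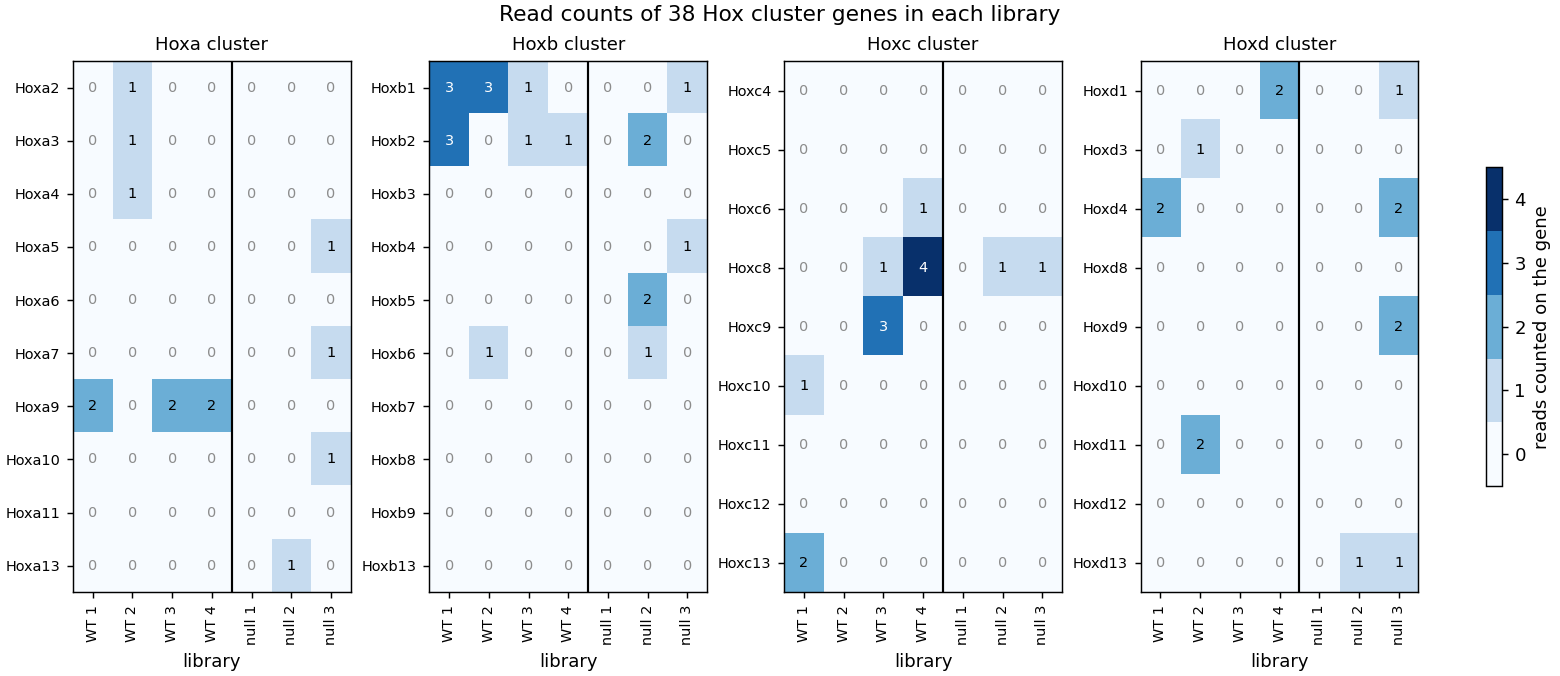
Read counts of 38 Hox genes (rows, ordered by paralog number within a cluster) in each of the 7 libraries (columns, WT left and Smchd1-null right of the black line); the number and the shade of a cell both give the count. Most cells are at 0, Smchd1-null replicate 1 is at 0 throughout, and the highest cell is Hoxc8 in WT replicate 4 with 4 counts.

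Single genes were seen in few samples. Of the 25 genes with a count, 16 were seen in 1 sample, 4 in 2 samples and 5 in 3 or more. By genotype, 6 genes had counts in both, 11 in WT samples only and 8 in Smchd1-null samples only. The 4 WT samples held 18.2 M counts and the 3 Smchd1-null samples 15.1 M. A gene seen in 1 sample is in 1 genotype by necessity, so this split does not show expression particular to a genotype. The same split over other genes of such low counts was not examined. No member reached 10 counts over the 7 samples, and the highest single level was that of Hoxc9 in WT replicate 3, 0.787 CPM from 3 counts. The members with 4 or more counts in all were Hoxb1, Hoxb2, Hoxc8, Hoxa9 and Hoxd4, which were picked out here after their counts were seen.

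Paralog groups 1 to 4, the genes of the hindbrain and neck, held 30 of the 64 counts on 12 genes. Hoxb1, which specifies rhombomere 4 of the hindbrain, had the most counts of all members, with 3, 3, 1 and 0 in WT replicates 1 to 4 and 0, 0 and 1 in Smchd1-null replicates 1 to 3. Per length it was also the highest member, at 0.116 CPM per kb, the mean over the 7 samples. Its neighbour Hoxb2, which acts in rhombomeres 3 to 5, had 3, 0, 1 and 1 counts in WT and 0, 2 and 0 in Smchd1-null samples. Both were seen in both genotypes, and their values overlapped between genotypes. Hoxd4 had 2 counts in WT replicate 1 and 2 in Smchd1-null replicate 3, and Hoxd1 had 2 in WT replicate 4 and 1 in Smchd1-null replicate 3. Hoxa2, Hoxa3, Hoxa4 and Hoxd3 each had 1 count, all in WT replicate 2, and Hoxb4 had 1 in Smchd1-null replicate 3.

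Paralog groups 5 to 8, genes of the neck and thorax, held 14 counts on 11 genes. Hoxc8, a thoracic gene, accounted for 7 of them, with 0, 0, 1 and 4 in WT replicates 1 to 4 and 0, 1 and 1 in Smchd1-null replicates 1 to 3. Of its 5 counts in WT, 4 came from replicate 4, the sample with the high oligodendrocyte markers. Hoxb5 had 2 counts in Smchd1-null replicate 2, and Hoxb6 had 1 count in WT replicate 2 and 1 in Smchd1-null replicate 2. Hoxc6 had 1 count in WT replicate 4, and Hoxa5 and Hoxa7 each had 1 in Smchd1-null replicate 3.

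Paralog groups 9 to 13, genes of the lower trunk, limbs and tail, held 20 counts on 16 genes. Hoxa9, a gene of the trunk and of blood stem cells, had 2, 0, 2 and 2 counts in WT replicates 1 to 4 and none in any Smchd1-null sample. Its pooled WT level, 0.329 CPM, was 1.62-fold that of 3 counts over the Smchd1-null group (0.203 CPM). This ratio leaves out the counting error of the 6 WT counts, so it is no lower bound, and the groups still overlapped at 0. Hoxc9 had 3 counts in WT replicate 3, Hoxc13 had 2 and Hoxc10 had 1 in WT replicate 1, and Hoxd11 had 2 in WT replicate 2. In Smchd1-null samples, Hoxd9 had 2 counts and Hoxa10 had 1 in replicate 3, Hoxa13 had 1 in replicate 2, and Hoxd13 had 1 in each of replicates 2 and 3. Low, middle and high paralog numbers thus all held some counts, with the most, 30 on 12 genes, in groups 1 to 4. Groups 5 to 8 held 14 on 11 genes and groups 9 to 13 held 20 on 16. In WT samples these 3 sets held 23, 7 and 14 counts, and in Smchd1-null samples 7, 7 and 6. Whether the sets differed was not tested.

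The comparison of genotypes asked whether loss of Smchd1 changed Hox transcripts in NSCs. Summed over the 39 genes, WT replicates 1 to 4 held 14, 10, 9 and 11 counts, or 3.42, 2.22, 2.36 and 1.89 CPM. Smchd1-null replicates 1 to 3 held 0, 8 and 12 counts, or 0, 1.06 and 2.60 CPM. The mean was 2.47 ± 0.66 CPM (SD, n = 4) over the WT samples and 1.22 ± 1.31 CPM (SD, n = 3) over the Smchd1-null samples, so the spread in the Smchd1-null samples was larger than the difference. Smchd1-null replicate 1, the shallowest library, had no Hox count and the exact 95% Poisson interval of its level reached 1.38 CPM. Smchd1-null replicate 3 was above 3 of the 4 WT samples, and the genotypes overlapped.

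**Figure D2:**
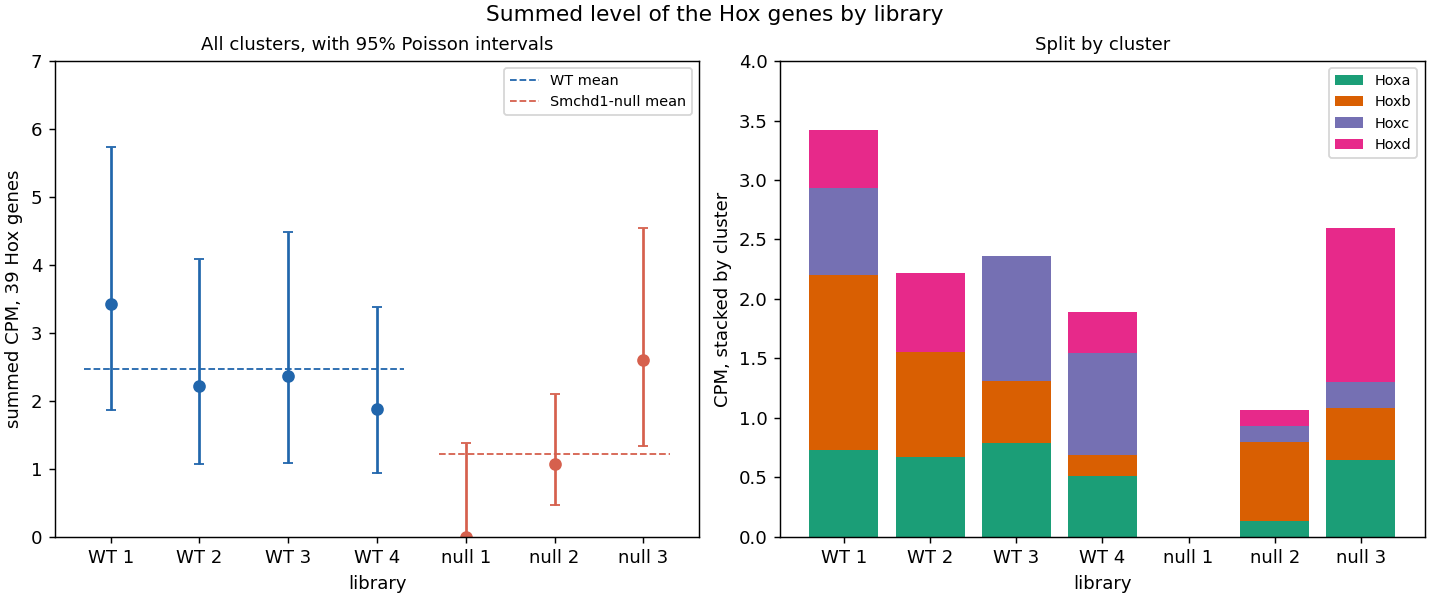
Summed level of the 39 Hox genes (vertical axis, CPM) in each library, with 95% Poisson counting intervals and the mean of each genotype as a dashed line (left), and the same levels stacked by cluster (right). WT samples lie between 1.89 and 3.42 CPM and Smchd1-null samples between 0 and 2.60 CPM, and WT replicate 1 and Smchd1-null replicate 1 are the only pair of libraries whose intervals do not overlap.

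Pooled over samples, the Hox level was 2.41 CPM in WT and 1.35 CPM in Smchd1-null, a ratio of 0.560 (0.313 to 0.971). This interval holds counting error only and takes no account of the spread between samples. Without Smchd1-null replicate 1 the ratio was 0.683 (0.382 to 1.18), without WT replicate 1 it was 0.637 (0.343 to 1.16), and without Smchd1-null replicate 3 it was 0.326 (0.133 to 0.700). The direction differed between batches: in batch 1 the pooled level was 2.22 CPM in WT (1 sample) and 0.786 CPM in Smchd1-null (2 samples), while in batch 2 it was 2.07 CPM in WT (2 samples) and 2.60 CPM in Smchd1-null (1 sample). Fewer cells with Hox transcripts and fewer transcripts per cell cannot be told apart in these bulk samples.

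None of the clusters was separated between genotypes. In Hoxa the counts were 3, 3, 3 and 3 in WT and 0, 1 and 3 in Smchd1-null samples, a pooled ratio of 0.411 (0.0966 to 1.36). In Hoxb they were 6, 4, 2 and 1 in WT and 0, 5 and 2 in Smchd1-null samples, a pooled ratio of 0.664 (0.224 to 1.79). In Hoxc they were 3, 0, 4 and 5 in WT and 0, 1 and 1 in Smchd1-null samples, a pooled ratio of 0.205 (0.0223 to 0.923, counting error only), and WT replicate 2 had no Hoxc count. In Hoxd they were 2, 3, 0 and 2 in WT and 0, 1 and 6 in Smchd1-null samples, a pooled ratio of 1.23 (0.369 to 4.12). WT samples and Smchd1-null samples overlapped in each cluster.

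The number of members seen followed the same picture. At least 1 count was found for 7, 7, 6 and 6 genes in WT replicates 1 to 4 and for 0, 6 and 10 genes in Smchd1-null replicates 1 to 3. Expected at the depth of the shallowest library, these numbers were 6.08, 4.75, 4.73 and 3.76 in WT and 0, 2.58 and 6.43 in Smchd1-null samples. Smchd1-null replicate 3 thus showed the most members and replicate 1 the fewest.

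Members could not be tested in the filtered comparison. The filter on low counts asked for about 2.18 CPM (10 counts) in 3 samples and kept 13305 genes, none of them a Hox gene, so 0 Hox genes were tested and 0 were called, beside 1.08% of all tested genes at an adjusted p under 0.25 and 0.0902% under 0.05 (limma). In fits of all 36857 genes with a count, 25 Hox genes were tested (the limma fit was planned, and those with other tools or terms were added after the counts were seen). None had an adjusted p under 0.25 with limma or with edgeR's quasi-likelihood test, beside 0.0597% and 1.12% of all genes. DESeq2 gave none of them an adjusted p, and its smallest unadjusted p was 0.191.

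The smallest unadjusted p among the members was that of Hoxa9 with limma, edgeR and DESeq2 alike. It was 0.0460 with limma (adjusted p = 0.767) and 0.0424 with edgeR's quasi-likelihood test (adjusted p = 0.731), and Hoxa9 was higher in 3 of the 4 WT samples than in any Smchd1-null sample. The fitted log2 fold change was -1.50 ± 0.69 (SE) with limma, -3.76 with edgeR and -3.06 with DESeq2, and since every Smchd1-null sample was at 0 it depends on how each tool treats a count of 0. It rests on the 3 WT samples with 2 counts each. It was the only member with an unadjusted p under 0.05 in these fits, 1 of 25, beside 5.19% of all genes with limma and 5.36% with edgeR. With the batch as a covariate (WT replicate 1, run in both batches, was set midway between them) no member had an unadjusted p under 0.05, beside 4.88% of all genes, and the smallest was 0.123 (limma, adjusted p = 0.950). With the replicate number as a block there were 2, beside 5.74% of all genes, Hoxb1 with 0.00633 (limma, adjusted p = 0.365) and Hoxa9 with 0.0382 (limma, adjusted p = 0.781). That no single Hox gene was called does not show that the genotypes were alike, and the size of difference that could have been called at these counts was not tested.

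Exons shared with other annotated genes limit what a count stands for. Of the 39 genes, 16 share exon bases with another gene, 9 of them with a gene on the same strand and 10 with a gene on the opposite strand, and 30 of the 64 counts fell on these 16. Whether the counting used strand is not given in the sources used here, so Hox and antisense reads could not be told apart there. How reads on bases shared by several genes were counted is not given either, so a count of 0 on such a gene is uncertain. Of the genes with no count, Hoxa11, Hoxb3, Hoxc5 and Hoxd10 share exon bases, Hoxb3 2250 of its 4251. Hoxb2, for example, shares 953 of its 3488 exon bases with the antisense gene Hoxb3os, and Hoxd3 and Hoxd4 share exons with each other and with the readthrough gene Gm28230. The 23 genes with no shared exon held 34 counts, with means of 1.16 ± 0.18 CPM (SD, n = 4) for WT and 0.827 ± 1.01 CPM (SD, n = 3) for Smchd1-null, again with overlap.

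The Hox counts were set beside those of olfactory receptor genes, which serve smell in the nasal epithelium and were chosen for this after the Hox counts were seen. Per kb of exon length, the 39 Hox genes held 0.622 counts over the 7 samples and the 1093 olfactory receptor genes 0.712, against 267 for all protein-coding genes. Among Hox genes 64.1% had a count, with a median of 1, and among olfactory receptor genes 49.5%, with a median of 0. Among all protein-coding genes 85.2% had a count, with a median of 75, and 36.7% had no more than 8, the total of Hoxb1. A few olfactory receptor genes held many counts, with 265 on the highest and 3 genes past the filter on low counts, while 95.7% had no more than 8. The order of the families therefore depends on the measure, with Hox genes lower in counts per kb and higher in the median and in the share of genes with a count, and their difference was not tested.

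**Figure D3:**
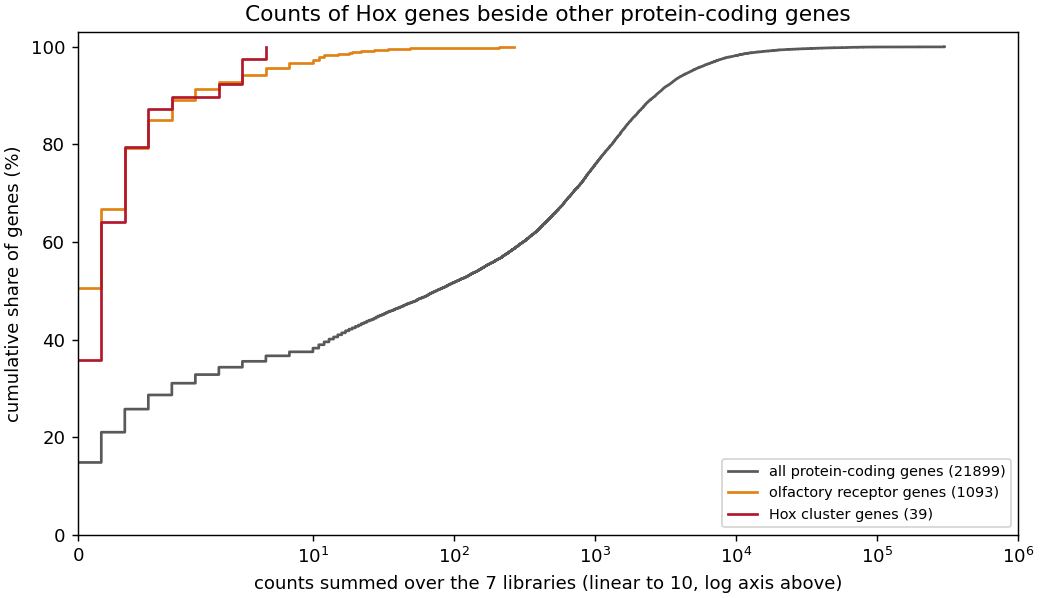
Cumulative share of genes (vertical axis, %) with at most a given number of counts summed over the 7 libraries (horizontal axis, linear to 10 and logarithmic above), for all protein-coding genes, olfactory receptor genes and Hox genes. Up to 8 counts the Hox and olfactory receptor curves both lie above that of all protein-coding genes, and at 0 the Hox curve is the lower of these. The Hox curve ends at 8 counts, where the curve of all protein-coding genes stands at 36.7%.

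Many genes beside the clusters were expressed at levels far above those of the Hox genes. Within 500 kb of a cluster end, the highest mean level per length of a Hox gene was 0.116 CPM per kb in Hoxb (Hoxb1), 0.0655 in Hoxc (Hoxc8) and 0.0446 in Hoxd (Hoxd4). The highest of the other protein-coding genes there were Hibadh beside Hoxa (8.60 CPM per kb), Atp5g1 beside Hoxb (59.8), Hnrnpa1 beside Hoxc (213) and Mtx2 beside Hoxd (34.0). Of these other genes, 9 of 17 around Hoxb, 20 of 25 around Hoxc and 2 of 4 around Hoxd were above the highest Hox gene of their cluster. Evx1 and Evx2, homeobox genes that flank the 5′ ends of Hoxa and Hoxd, had no count in any sample.

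**Figure D4:**
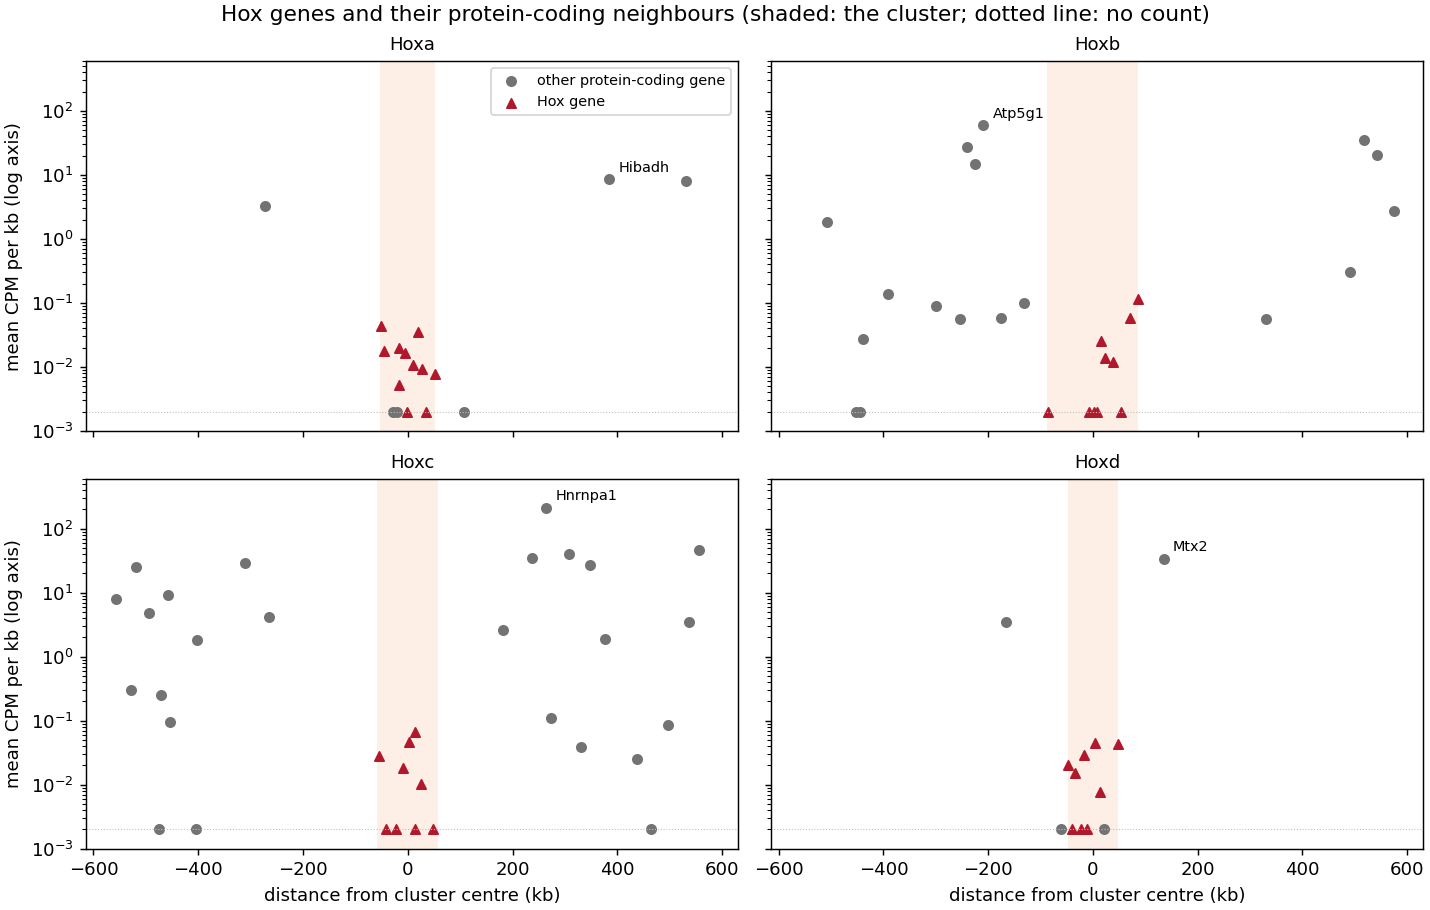
Mean level over the 7 libraries (vertical axis, CPM per kb of exon length, logarithmic) of Hox genes and other protein-coding genes within 500 kb of each cluster, against the distance of a gene's centre from the cluster's centre (kb); genes with no count are drawn on the dotted line and the shaded span is the cluster. Hox genes lie at or under 0.116 CPM per kb, and each cluster has neighbours above that level.

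The change of genotype was also not called in the flanking genes. Of the 5 nearest protein-coding genes on each side of each cluster, 40 in all, 30 were tested and 0 had an adjusted p under 0.25 with limma (beside 1.08% of all tested genes) or with edgeR's quasi-likelihood test (beside 0.0601%), while 4 had an unadjusted p under 0.05 with limma, beside 13.9% of all tested genes. Beside Hoxa, the gene with the highest mean CPM was Hnrnpa2b1, an RNA-binding protein gene, with means of 1751 ± 212 CPM (SD, n = 4) for WT and 1706 ± 105 CPM (SD, n = 3) for Smchd1-null. Beside the other clusters these were Atp5g1 (290 and 299 CPM), Hnrnpa1 (682 and 655 CPM) and Atp5g3 (1802 and 1717 CPM, WT and Smchd1-null means), of which Atp5g1 and Atp5g3 encode subunits of the ATP synthase. The smallest adjusted p was that of Skap2, an adaptor protein gene beside the Hoxa cluster, with 60.8, 33.1, 38.0 and 46.5 CPM in WT and 28.5, 27.3 and 27.9 CPM in Smchd1-null samples. Its log2 fold change was -0.66 ± 0.18 (SE, limma adjusted p = 0.257), the genotypes did not overlap, and it is named here for its value, outside the rule. Without WT replicate 2 its limma adjusted p was 0.0709, in a fit with 22.7% of all tested genes under 0.25. Without Smchd1-null replicate 3 it was 0.0714, in a fit with 23.5% under 0.25. It was 0.367 to 1.00 when any other sample was left out. With the batch as a covariate and without WT replicate 1 the log2 fold change was -0.38 (limma adjusted p = 0.727).

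Inside the clusters lie 46 other annotated genes, of which 12 had a count. All but 26 of their 1803 counts fell on Gm11539, a processed pseudogene on the plus strand within Hoxb (chr11:96248633-96249189). Its level was 27.8, 68.2, 43.0 and 37.9 CPM in WT and 70.6, 79.3 and 40.5 CPM in Smchd1-null samples, a log2 fold change of 0.76 ± 0.24 (SE, limma adjusted p = 0.288), and the genotypes overlapped. Without WT replicate 2 the limma adjusted p was 0.0668, in a fit with 22.7% of all tested genes under 0.25. Without Smchd1-null replicate 3 it was 0.0417, in a fit with 23.5% under 0.25. It was 0.414 to 1.00 when any other sample was left out. The log2 fold change was 0.23 with the batch as a covariate, 0.08 when WT replicate 1 was also left out, 0.33 with the replicate block and 0.36 without Smchd1-null replicate 2 (limma adjusted p = 0.772, 0.923, 0.807 and 1.00). Reads of a processed pseudogene and of its parent gene can be counted for each other, so this value is uncertain. Long noncoding RNAs of the clusters also held few counts: Hotairm1 had 2 counts in all, Hoxaas3 had 3, and Hotair, Haglr and Hoxb3os had 1 each.

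The clusters also hold microRNA genes that target Hox messages. Their mature forms are not polyadenylated and were not measured here, so counts at a hairpin gene can come only from longer transcripts. Mir196a-1 in Hoxb had 2 counts, both in Smchd1-null replicate 1, and Mir10a, Mir10b, Mir196a-2, Mir196b and Mir615 had none. The mature forms of the miR-10 and miR-196 families (RefSeq, GRCm38.p6) are shown because copies in different clusters share a seed, bases 2 to 8, given in capitals. Of the first pair, miR-10a comes from beside Hoxb4 and miR-10b from within the annotated span of Hoxd4. The form miR-196a-5p is made with the same letters from Hoxb and Hoxc.
mmu-miR-10a-5p: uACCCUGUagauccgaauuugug
mmu-miR-10b-5p: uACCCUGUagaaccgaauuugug
mmu-miR-196a-5p: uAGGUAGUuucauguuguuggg
mmu-miR-196b-5p: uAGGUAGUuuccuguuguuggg

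The windows before the Hox start sites were read from RefSeq (GRCm38.p6), and some of them overlap annotated exons. In all there were 24 windows of 244 to 250 bases for 22 of the 39 genes. Their median number of CG dinucleotides was 12.5, with a range from 2 to 35, against a median of 6 in the windows of all 32841 promoters, of which 31.5% reached the Hox median. The motif TGATNNAT, which Hox and Pbx proteins can bind together, was searched on both strands and found in 4 of the 24 windows (16.7%) and in 7.69% of all promoters. The motif TATAAA, searched in the same way, was found in 4 (16.7%) and in 12.4%, and matches of the 2 motifs did not overlap in the Hox windows. Hoxb1, the member with the most counts, holds TGATGGAT on its own strand, in capitals in the 244 bases shown (chr11:96365508-96365751, plus strand, ending before the first annotated exon).
Hoxb1: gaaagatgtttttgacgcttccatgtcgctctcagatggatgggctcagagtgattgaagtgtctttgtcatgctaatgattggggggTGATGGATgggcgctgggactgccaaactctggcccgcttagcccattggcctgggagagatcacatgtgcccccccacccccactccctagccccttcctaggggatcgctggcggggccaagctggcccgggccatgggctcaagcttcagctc

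The other windows shown are those of the members with the most counts in Hoxa and Hoxd, Hoxa9 (chr6:52227371-52227620, minus strand) and Hoxd4 (chr2:74721728-74721977, plus strand), and the window with the most CG dinucleotides, Hoxa13 (chr6:52260881-52261130, minus strand). CG dinucleotides are in capitals. Hoxa9 and Hoxd4 have 3 each and Hoxa13 has 35, and Hoxa13 had 1 count in all. Among windows not shown, Hoxd8 has 6 and no count, and Hoxd13 has 31 and 2 counts. A link between CG number and counts was not tested.
Hoxa9: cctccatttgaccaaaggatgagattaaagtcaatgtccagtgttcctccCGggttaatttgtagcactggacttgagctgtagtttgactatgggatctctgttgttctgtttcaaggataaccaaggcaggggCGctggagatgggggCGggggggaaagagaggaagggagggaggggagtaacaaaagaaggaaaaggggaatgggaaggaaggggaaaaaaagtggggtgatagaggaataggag
Hoxd4: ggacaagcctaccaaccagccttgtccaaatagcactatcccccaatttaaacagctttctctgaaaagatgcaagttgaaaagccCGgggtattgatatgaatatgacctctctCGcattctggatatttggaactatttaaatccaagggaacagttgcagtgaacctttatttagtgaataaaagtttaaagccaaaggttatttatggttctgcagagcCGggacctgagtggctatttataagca
Hoxa13: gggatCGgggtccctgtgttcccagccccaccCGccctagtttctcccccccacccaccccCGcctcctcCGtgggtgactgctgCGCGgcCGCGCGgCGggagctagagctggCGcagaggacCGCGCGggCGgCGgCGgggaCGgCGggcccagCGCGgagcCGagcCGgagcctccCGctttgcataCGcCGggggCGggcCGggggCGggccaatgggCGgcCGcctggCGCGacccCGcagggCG

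Genes that act with, on or beside the Hox genes were described by 6 lists holding 88 genes, of which 46 were tested. None had an adjusted p under 0.25 in the comparison of genotypes with limma (beside 1.08% of all tested genes) or with edgeR's quasi-likelihood test, while 12 had an unadjusted p under 0.05 with limma (beside 13.9% of all tested genes) and 1 with edgeR (beside 5.07%). The count of 0 depended on single samples. With limma 13 of the 46 were called without WT replicate 2, beside 22.7% of all tested genes, and 15 of the 46 without Smchd1-null replicate 3, beside 23.5%, so calls rose over all genes when either sample was left out.

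Most partners and Polycomb regulators lay above the Hox genes per length, with a median over the list of 4.45 CPM per kb for TALE cofactors and 4.38 CPM per kb for Polycomb and Trithorax genes, against at most 0.116 CPM per kb for a Hox gene. The exceptions were Tgif2 of the TALE list (0.0856 CPM per kb) and Cbx7 of the Polycomb list (0.0926 CPM per kb), which were under that level. The order depends on the measure, since without the length Tgif2 had a mean of 0.328 CPM and Hoxb1 0.268 CPM. Of the 11 TALE cofactor genes, 10 were tested, with a median log2 fold change of -0.17 against 0.00 over all tested genes. Meis2 had means of 77.2 ± 6.7 CPM (SD, n = 4) for WT and 88.0 ± 8.0 CPM (SD, n = 3) for Smchd1-null. Of the 22 Polycomb and Trithorax genes, 21 were tested, with a median log2 fold change of -0.02. Ezh2, the histone H3 lysine 27 methyltransferase of Polycomb complex 2, had means of 179 ± 14 CPM (SD, n = 4) for WT and 189 ± 3.1 CPM (SD, n = 3) for Smchd1-null, and Phc2, a subunit of Polycomb complex 1, had means of 138 ± 33 and 149 ± 32 CPM (SD).

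Among factors that mark brain regions, the highest of the forebrain list stood above the highest of the midbrain and hindbrain list per length. The mean over the 7 samples was 21.0 CPM per kb for Lhx2 against 1.94 for Egr2. Most members of both lists were low, with list medians of 0.0989 CPM per kb for the forebrain and 0.0488 for the midbrain and hindbrain. Both medians were under the 0.116 CPM per kb of Hoxb1. Lhx2, which cortical progenitors need, was at 77.4, 88.2, 110 and 43.2 CPM in WT and 122, 104 and 102 CPM in Smchd1-null samples, a log2 fold change of 0.41 ± 0.19 (SE, limma adjusted p = 0.362) with overlap. With the replicate block it was 0.21 and without WT replicate 4 it was 0.26 (limma adjusted p = 0.875 and 0.512). Of the 19 forebrain genes 6 were tested, and 2 (Fezf1 and Fezf2) had no count. In the list of 12 midbrain and hindbrain genes 3 were tested, and the one with the highest mean CPM was Egr2, a gene of rhombomeres 3 and 5, with means of 6.89 ± 2.2 CPM (SD, n = 4) for WT and 6.19 ± 1.9 CPM (SD, n = 3) for Smchd1-null. The summed list lay between 203 and 276 CPM for the forebrain and between 11.7 and 18.7 CPM for the midbrain and hindbrain.

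Genes of retinoid signalling and Cdx, which act upstream of the clusters, differed widely in level. Of the 20 genes, 6 were tested and 5 had no count, among them Cdx1, Cdx2 and Cdx4. The receptors Rxrb (means of 25.8 ± 4.3 CPM for WT and 31.2 ± 5.8 CPM for Smchd1-null, SD) and Rara (9.05 ± 2.8 and 10.4 ± 2.5 CPM, SD) had the highest mean CPM, and the retinoic acid synthesis gene Aldh1a2 had 2 counts in all. Among 9 homeobox relatives of the Hox genes outside the clusters, only Gsx1 was tested, with means of 5.34 ± 1.4 CPM for WT and 7.43 ± 0.90 CPM for Smchd1-null (SD) and a limma adjusted p of 0.461, and Gsx2 was at 1.06 ± 0.75 and 1.21 ± 1.1 CPM (SD). Both Gsx genes, which pattern the ventral forebrain, also stand in the forebrain list, and 6 of the 9 relatives had no count.

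**Figure D5:**
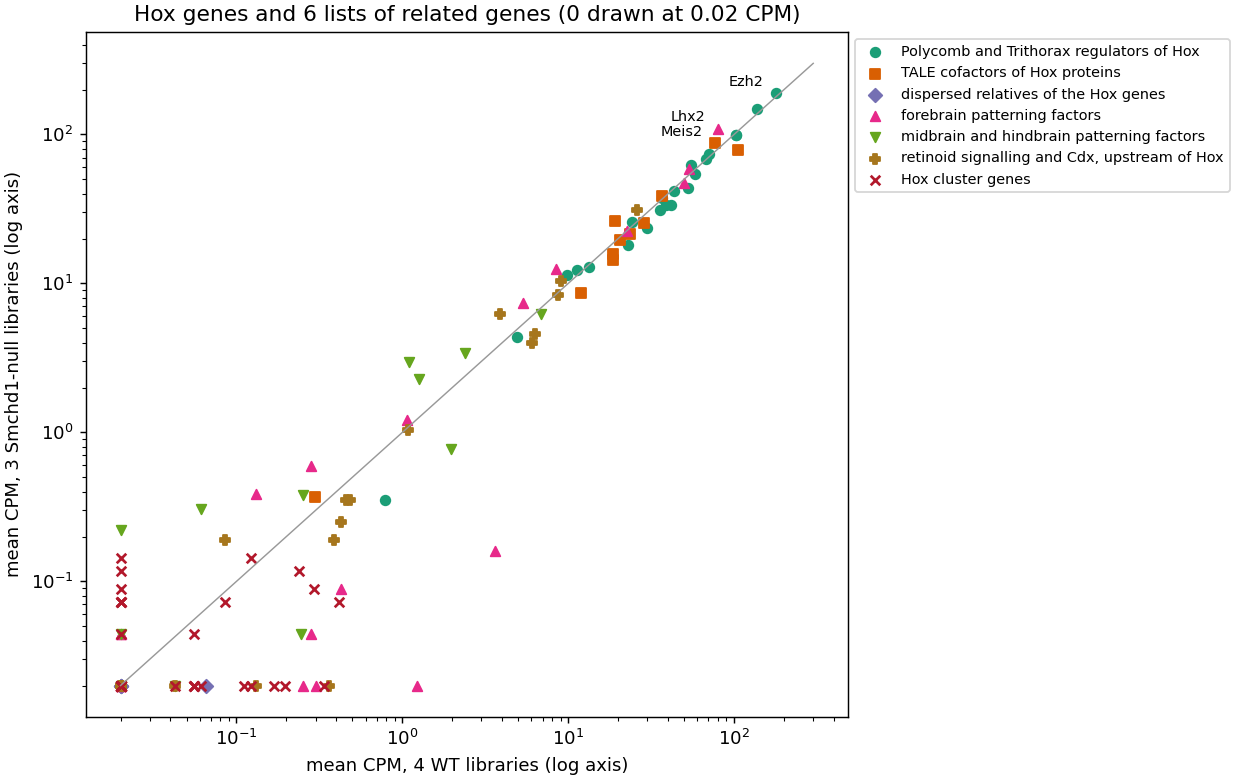
Mean level in the 4 WT libraries (horizontal axis, CPM, logarithmic) against that in the 3 Smchd1-null libraries (vertical axis, CPM, logarithmic) for the 39 Hox genes (crosses) and 6 lists of related genes, with means of 0 drawn at 0.02 and the line of equal levels in grey; a gene on more than 1 list is drawn once. Ezh2, Meis2 and Lhx2 lie above 50 CPM, and Hox genes lie under 0.5 CPM.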

How the data were processed

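The authors base-called and demultiplexed the nanopore reads with Guppy, aligned them to mm10 with minimap2 2.17, counted them per gene with featureCounts (Gencode M23) and summed runs of a sample, and the deposited values are these raw whole-number counts with the length of each gene. Strand and multi-gene settings of the counting are not given in the sources used here. Symbols came from Gencode M21 (GRCm38): 55154 of 55335 identifiers matched with versions ignored, and all 39 Hox identifiers matched with their version. Hox genes, gene lists and tests were chosen with earlier results of these data known.

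Following the study, genes were filtered with filterByExpr, scaled by TMM and tested with limma 3.58.1 (voomWithQualityWeights, genotype as the only term, 7 samples, two-sided, Benjamini-Hochberg over 13305 genes, R 4.3.3). CPM uses TMM-scaled library sizes and log-CPM a prior count of 2. Alternatives were edgeR 4.0.16, DESeq2 1.42.0, other scalings and filters, batch and replicate terms, removal of the length trend and leaving out each sample. Intervals of levels are exact Poisson, and those of ratios exact binomial, at 95% and for counting error only. Library totals ran from 2741820 to 7736498 counts, so 1 count was worth 0.133 to 0.375 CPM. The limma, edgeR and DESeq2 fits of filtered genes were checked on simulated counts, and fits with batch or replicate terms were not. Hox genes entered only the fits of all genes with a count. How these fits behave at counts as low as those of the Hox genes was not tested. All 39 Hox genes entered the sums and counts, and the values of a few single genes are not reported here. Genes in or beside a cluster and list members were named by a rule on total counts, adjusted p under 0.25 or highest mean level, and those singled out for their values are said to be so. No duplicate libraries were found.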

Additional observations from a re-analysis of the deposited data

Results flagged for a closer look

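Among the 4 WT samples, 20 quantities (Hox levels and detection, and the log-CPM of tested genes named by rule) were examined for a sample far from the rest, and about 1 such flag comes by chance. There were 3, none of them a Hox value. The log2-CPM of Meis2 was 6.08 in WT replicate 2 against 6.33 to 6.34 in the other WT samples, and that of Gsx1 was 1.85 in WT replicate 1 against 2.68 to 2.72. In WT replicate 4, Ezh2 was at 7.30 against 7.53 to 7.57.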

How the results depend on the processing

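Hox calls could barely be put to the test. Of the 22 alternatives, 17 tested no Hox gene, and the 5 that tested 25 of the 39 called none at an adjusted p under 0.25 or 0.05, with an adjusted p for a Hox gene in 4 of them (DESeq2 gave none). The 0 companion genes called under 0.25, of 46 tested, became 2 when 10 counts were asked for in every sample (beside 3.06% of all genes tested). They became 0 to 15 when a sample was left out (beside 0.00733% to 23.5%). The fits of all genes with a count tested 77 companion genes. There edgeR called 2 (Otx2 and Six3, beside 1.12%) and the replicate block called 2 (En2 and Otx2, beside 1.32%). Otx2 and Six3 did not pass the filter on low counts, and both were highest in WT replicate 1. Under 0.05 those 2 fits of all genes called 2 (edgeR, beside 0.591%) and 1 (replicate block, beside 0.537%), and no other alternative called any. With the replicate block on the filtered genes, no Hox gene was tested, and 0 of 46 companion genes were called under 0.25 (beside 0.970% of all genes tested). Samples that share a replicate number correlated at -0.04, 0.36 and 0.09, so the numbers were not taken as pairs. The mean number of Hox genes seen per sample was 1.25 in WT and 0 in Smchd1-null when 3 counts were asked for, and was 4.83 in WT at the depth of the shallowest library. The summed Hox level in WT was 1.16 CPM over genes with no shared exon, and in Smchd1-null it ran from 0.532 to 1.83 CPM when a sample was left out. Of the genes given with a fold change, Smchd1 kept its call (log2 -2.25 to -1.86), and Gm11539, Lhx2 and Skap2 passed 0.25 in some alternatives, with no sign changes. Depth limits what a sample can show, since 3 counts in it were 0.399 to 1.13 CPM, and so does the spread between samples. The cause of these changes was not tested, except that more genes entered some fits, and fewer genes or samples entered others.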

Other observations

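Low counts of some forebrain factors stood in a single WT sample. Six3, a gene of the eye and anterior forebrain, was at 12.9 CPM in WT replicate 1 and at 0 to 1.03 CPM in the other 6 samples. Otx2, a gene of the forebrain and midbrain, was at 3.66 CPM there, at 0.888, 0 and 0.343 CPM in WT replicates 2 to 4, and listed at 0 in all 3 Smchd1-null samples. WT replicate 1 also held the highest summed Hox level, 3.42 CPM, and the highest summed level of olfactory receptor genes, 119 CPM against 43.3 to 78.1 CPM in the other samples.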
